A study of Mus musculus with 24 samples.

Results

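Expression of a fixed list of extracellular matrix proteases and their inhibitors was examined in bone marrow-derived macrophages (BMDMs) that were labelled as lacking Fos or as controls, before and after LPS. The list held 5 matrix metalloproteinases (Mmp9, Mmp12, Mmp13, Mmp14 and Mmp19), 2 secreted proteases with thrombospondin motifs (Adamts1 and Adamts4) and 3 tissue inhibitors of metalloproteinases (Timp1, Timp2 and Timp3). These 10 genes were taken by symbol from a table of 24273 genes. Of them, 9 passed a filter on low values, each in all 24 libraries, and were tested with 13901 genes in all. Timp3 did not pass and is described by its values.

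BMDMs are obtained by culturing bone marrow cells until they become macrophages, here for 7 days in medium conditioned by L cells, from mice of the C57BL/6 strain. RNA was sequenced from cells left untreated (0 h) and from cells given 100 ng/ml of LPS, the cell wall component of bacteria that TLR4 senses, for 0.5, 1 or 2 h. Each time had 3 libraries of each genotype. Both genotypes carried LysM-Cre, a Cre recombinase placed at the lysozyme locus and active in myeloid cells. The libraries labelled FosKO came from mice in which both Fos alleles were floxed, so that Cre can delete them. The controls are given as LysM-Cre alone in the series' description and as LysM-Cre with 1 floxed Fos allele (Fos FL/+) in the study's text. The study's methods call the libraries biological replicates. Whether those of a group came from separate mice or cultures is not given in the sources used here, and p-values measure the spread between these libraries. The study's methods give a typical read yield, but the read number of each library is unknown.

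Matrix metalloproteinases are zinc enzymes that cut collagens, elastin and other proteins of the matrix, as well as cytokines and receptors at the cell surface. Adamts proteases cut proteoglycans such as versican and aggrecan, and Timps are small secreted proteins that block the active site of these enzymes. In macrophages the balance between them sets how far the cell can degrade and move through tissue. Fos pairs with Jun proteins to form AP-1, a transcription factor long known to act at promoters of several metalloproteinase genes through sites such as TGACTCA.

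The label of the Fos deletion could not be verified from these values. Fos differed by 1.49, -0.77, 1.64 and 3.29 on the log2 scale at 0, 0.5, 1 and 2 h (libraries labelled FosKO minus LysM-Cre), so at 3 of the 4 times the libraries labelled FosKO had more of it (limma adjusted p at most 5.93e-07). After 0.5 h of LPS Fos rose by 2.41 in LysM-Cre (adjusted p 1.61e-14), while the change in the libraries labelled FosKO was 0.15 and was not called (adjusted p 0.396), a difference in response of -2.26 (adjusted p 1.38e-09). Lyz2, the locus that carries Cre, was higher in them by 4.89 to 5.17. An effect of the Fos deletion cannot be told apart here from one that goes with this difference in Lyz2. Every direction below rests on the labels. The 18S ribosomal RNA gene Rn18s-rs5 split the libraries. In 5 of them (at 0.5 h LysM-Cre replicate 3 with FosKO replicate 1, at 1 h LysM-Cre replicates 2 and 3 with FosKO replicate 1) it read 16.65 to 17.00, and in the other 19 it read 18.57 to 19.39. No label names this split as a batch. Differences between genotypes at 0.5 and 1 h are therefore also given within the high and the low 18S set. At 1 h the high set holds 1 LysM-Cre library against 2 labelled FosKO, so tests in it take the spread of the lone library from the other groups. In the low set 1 or both genotypes have 1 library, and its values were not tested. The macrophage markers (8 of 8 tested) summed to 141000 to 187000 over the libraries after 2 was raised to each value, and none of 6 lymphocyte markers passed the filter.

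Promoter windows were read to place the genes on the mouse genome beside the AP-1 site, since Fos is part of the factor that binds it. RefSeq windows on GRCm38.p6, from 250 bases before to 50 after a start site, were held for 7 of the 10 genes in 8 windows. Only exact letters were searched, so variants of a site were not counted. The AP-1 site TGACTCA, read on either strand, was found in 2 of the 8, against 5.2% of 32851 windows of the same length. It lay 35 to 29 bases before the start site of Mmp13 and, on the minus strand, 44 to 38 bases before the second of 2 start sites of Mmp12. The windows of Mmp13 and Mmp12 are shown because they hold the site, and those of Mmp14 and Timp1 because these genes had the largest genotype differences at any time. The site is in capitals, reversed and complemented in the Mmp12 window, and all 4 windows are written on the plus strand, which is the strand of each gene. They are chr9:7272264-7272563 (Mmp13), chr9:7347124-7347423 (Mmp12, second start site), chr14:54431348-54431647 (Mmp14) and chrX:20869916-20870215 (Timp1).
Mmp13: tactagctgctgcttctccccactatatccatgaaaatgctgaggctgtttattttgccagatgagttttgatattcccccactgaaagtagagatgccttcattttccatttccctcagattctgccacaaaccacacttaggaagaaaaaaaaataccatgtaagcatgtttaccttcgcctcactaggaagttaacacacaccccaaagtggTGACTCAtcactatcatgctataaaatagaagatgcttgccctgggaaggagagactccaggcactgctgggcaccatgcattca
Mmp12, second start site: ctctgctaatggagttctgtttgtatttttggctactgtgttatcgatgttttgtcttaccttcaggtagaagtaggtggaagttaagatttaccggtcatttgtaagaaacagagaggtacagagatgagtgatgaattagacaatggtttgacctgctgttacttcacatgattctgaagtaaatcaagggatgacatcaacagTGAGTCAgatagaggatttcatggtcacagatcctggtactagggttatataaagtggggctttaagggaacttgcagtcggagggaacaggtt
Mmp14: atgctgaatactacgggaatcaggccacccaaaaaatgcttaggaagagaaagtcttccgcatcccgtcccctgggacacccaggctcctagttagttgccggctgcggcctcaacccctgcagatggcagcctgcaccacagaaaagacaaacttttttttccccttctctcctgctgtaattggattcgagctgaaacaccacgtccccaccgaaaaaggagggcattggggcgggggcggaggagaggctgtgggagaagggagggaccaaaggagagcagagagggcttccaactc
Timp1: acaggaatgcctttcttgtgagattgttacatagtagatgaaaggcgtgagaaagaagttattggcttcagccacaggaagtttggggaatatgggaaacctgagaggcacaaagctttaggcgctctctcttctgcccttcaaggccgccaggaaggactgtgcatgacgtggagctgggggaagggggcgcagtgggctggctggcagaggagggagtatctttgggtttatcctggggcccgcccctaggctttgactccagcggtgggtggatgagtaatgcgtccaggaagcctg

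The other motifs searched on both strands were the CRE-type site TGACGTCA, the Ets site AGGAAG, the TATA box TATAAA and the GC box GGGCGG. The CRE-type site was in 0 of the 8 windows (1.79% of all windows). No 2 matches in a window overlapped. The Ets site was in 5 windows, those of Mmp13, Mmp14, Timp1 and Timp3 and the first of Mmp12 (35.4% of all windows). The TATA box was in 3 windows, those of Mmp13 and Adamts1 and the second of Mmp12 (13.6%), and the GC box in 5, those of Mmp14, Timp1, Timp2, Timp3 and Adamts1 (35.7%). A match is a description of the letters and not of binding.

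Mmp13 and Mmp12 are neighbours in the cluster of metalloproteinase genes on chromosome 9. On GRCm38, Mmp13 (ENSMUSG00000050578) spans chr9:7272514-7283331 and Mmp12 (ENSMUSG00000049723) spans chr9:7344381-7369499, with 61049 bases and no annotated gene between them. Mmp14 (ENSMUSG00000000957) is at chr14:54431612-54445364, Mmp9 (ENSMUSG00000017737) at chr2:164940780-164955850 and Mmp19 (ENSMUSG00000025355) at chr10:128790910-128800824. Adamts4 (ENSMUSG00000006403) is at chr1:171250421-171260637 and Adamts1 (ENSMUSG00000022893) at chr16:85793827-85803113. Timp1 (ENSMUSG00000001131) is at chrX:20870166-20874735, Timp2 (ENSMUSG00000017466) at chr11:118301069-118355740 and Timp3 (ENSMUSG00000020044) at chr10:86300372-86349506. All 10 code for protein, and values are sums over a whole gene. Exons of Mmp12, Mmp19, Timp1 and Timp3 overlap genes on the opposite strand, which are Mmp1b, Gm47093 with Tmem198b, Syn1 and Syn3 respectively. The study's methods state a strand-specific library, but the strand setting of the counting is not given in the sources used here.

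Levels were compared between the genes after division by exon length, on a log2 scale per kb. In LysM-Cre cells at 0 h Mmp12, the macrophage elastase, was highest at 12.60 ± 0.04 (SD, n = 3), followed by Timp2 at 10.87 ± 0.01 and the collagenase Mmp13 at 9.61 ± 0.12. Mmp19 (6.95), Mmp9 (6.45) and Mmp14 (5.65) formed a middle group, and Timp1 (4.75), Adamts1 (3.07) and Adamts4 (2.34) lay lower. Timp3 was lowest at -1.85. No neighbours in this order overlapped. After 2 h of LPS the order in LysM-Cre cells was Mmp12 (12.73), Mmp13 (12.05), Timp2 (10.72), Adamts4 (8.70), Mmp14 (7.96), Mmp9 (6.65), Mmp19 (6.14), Timp1 (6.01), Adamts1 (2.94) and Timp3 (-1.22), and only Mmp19 and Timp1 overlapped among neighbours. Adamts4 thus moved up past 5 genes and Mmp13 passed Timp2. In the libraries labelled FosKO at 0 h, Mmp14 (7.32) stood ahead of Mmp9 (7.05) and Mmp19 (6.73), but its libraries overlapped those of Mmp9, and Mmp9 overlapped Mmp19. The exon length is that of all annotated exons together and only approximates the transcript.

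**Figure D1:**
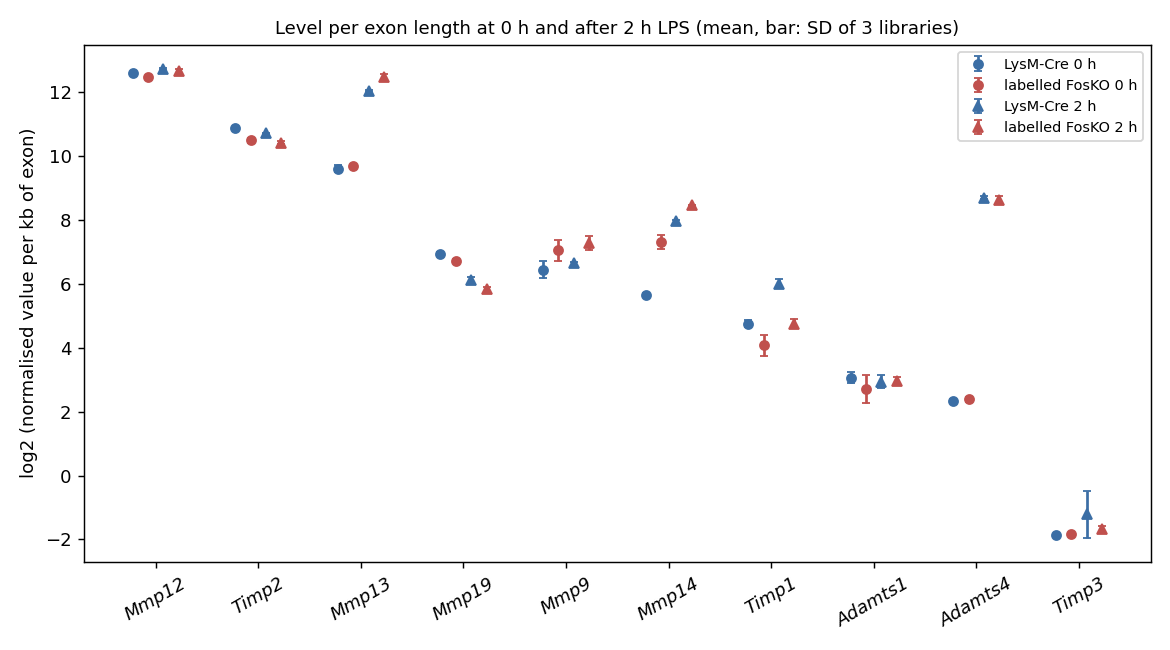
Level of each gene per kb of exon (vertical axis, log2) before LPS (circles) and after 2 h (triangles) in LysM-Cre (blue) and libraries labelled FosKO (red). Points are means and bars the SD of 3 libraries. Mmp12 stays near 12.6 in every group, whereas Adamts4 goes from 2.34 to 8.70 in LysM-Cre.

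The libraries labelled FosKO were compared with LysM-Cre at each time. Limma called 6 of the 9 tested genes at 0 h (2 higher and 4 lower under the FosKO label), against 35.4% of all genes tested (19.5% higher and 15.9% lower). It called 8 at 0.5 h (3 higher, 5 lower), against 40.9% of all genes (21.2% higher, 19.7% lower). The 1 h comparison gave 6 calls (2 higher, 4 lower), against 33.9% (18% higher, 15.9% lower), and the 2 h comparison 6 (3 higher, 3 lower), against 44.6% (24.4% higher, 20.3% lower). The libraries of the genotypes did not overlap for 5, 8, 8 and 6 of the 9 genes at the 4 times, against 44.5%, 50.8%, 45% and 54% of all genes. Mmp14 and Mmp9 were higher and Timp1, Timp2 and Mmp19 were lower at every time. The median difference over the 9 genes was -0.13, -0.22, -0.13 and -0.06, and that of all genes lay between -0.00319 and 0.00399.

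Markers of cell types moved with the genotype as well. All 8 macrophage markers were called at 0 h (3 higher and 5 lower under the FosKO label), and 5, 6 and 5 of them at 0.5, 1 and 2 h. The shares of all genes called at the 4 times were 35.4%, 40.9%, 33.9% and 44.6%, and some marker counts below lie near or under them. Of 6 osteoclast markers 4 were tested, and 2, 2, 3 and 3 were called lower at the 4 times and none higher. Their summed level at 0 h ran from 1050 to 1130 in LysM-Cre and from 672 to 736 in the libraries labelled FosKO. Of 4 tested dendritic cell markers 1 was called higher at 0.5 h and 2 at 1 h, with 1 called lower at 2 h, and of 4 tested stromal markers 1 was called lower, at 2 h. The part of these markers in the differences of the proteases was not tested.

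Mmp14, a metalloproteinase anchored in the membrane that activates other metalloproteinases, had the largest genotype difference of the 9 genes at 0 and 0.5 h. At 1 h it and Timp1 differed by about as much, and at 2 h Timp1 and Mmp9 had larger estimates. In LysM-Cre it read 8.24, 8.29 and 8.15 before LPS, while 0.5 h of LPS gave 8.30, 8.42 and 8.41, 1 h gave 9.09, 9.29 and 9.30 and 2 h gave 10.48, 10.53 and 10.59 on the deposited log2 scale. In the libraries labelled FosKO it read 9.66, 9.92 and 10.11, then 9.98, 10.11 and 10.40, then 10.22, 10.50 and 10.45, and finally 11.03, 11.02 and 11.05. Every library labelled FosKO lay above every LysM-Cre library of its time, and the gap was narrower at 1 and 2 h than before LPS. The difference was 1.67 at 0 h (SE 0.10, 3.17-fold, limma adjusted p 1.68e-10), 1.79 at 0.5 h (adjusted p 4.91e-11), 1.16 at 1 h (adjusted p 2.43e-08) and 0.50 at 2 h (adjusted p 0.000391). Split by 18S, the difference at 0.5 h was 1.90 in the high and 1.57 in the low set, followed by 1.38 and 0.93 after 1 h.

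LPS raised Mmp14 in both genotypes. The change from 0 h was 1.00 at 1 h and 2.31 at 2 h in LysM-Cre (limma adjusted p 7.88e-08 and 3.69e-14), and 0.50 and 1.14 in the libraries labelled FosKO (adjusted p 0.000578 and 3.44e-09). At 2 h the response in the libraries labelled FosKO was smaller by 1.17 (SE 0.14, adjusted p 8.69e-06). At 1 h the difference in response was -0.50 (95% interval -0.80 to -0.21) and was not called (adjusted p 0.123). Without FosKO replicate 1 at 0 h, which read lowest of its group, that difference was -0.62 and was called (adjusted p 0.0153). At 0.5 h in the libraries labelled FosKO the change was 0.27 and was not called (adjusted p 0.14), but it was called without FosKO replicate 3 at 0 h (0.37, adjusted p 0.0311) and with the high 18S libraries only (0.36, adjusted p 0.0472).

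Mmp9, a gelatinase stored by neutrophils and secreted by macrophages, was also higher in the libraries labelled FosKO. LysM-Cre libraries read 8.57, 8.17 and 8.09 before LPS, while 0.5 h of LPS gave 8.50, 8.32 and 8.30, 1 h gave 8.71, 8.43 and 8.48 and 2 h gave 8.51, 8.47 and 8.43. Libraries labelled FosKO read 9.06, 8.48 and 9.08, then 9.62, 8.63 and 9.28, then 9.38, 8.90 and 9.28, and at 2 h 9.13, 8.90 and 9.33. The library with number 2 was the lowest of its FosKO group at each time, and at 0 h it fell among the LysM-Cre libraries, whereas the genotypes did not overlap at the later times. The difference was 0.60 (SE 0.20, limma adjusted p 0.0238), 0.80 (adjusted p 0.00291), 0.65 (adjusted p 0.016) and 0.65 (adjusted p 0.0116) at the 4 times.

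The call for Mmp9 rested on few libraries. At 0 h it was lost without LysM-Cre replicate 2 or 3 or without FosKO replicate 1 or 3 (0.50 to 0.55, limma adjusted p 0.0792 to 0.107), at 1 h when FosKO replicate 1 or 3 or LysM-Cre replicate 2 was left out (0.55 to 0.60, adjusted p 0.0549 to 0.0639), and at 2 h without FosKO replicate 3 (0.54, adjusted p 0.0585). In the high 18S set it was 0.54 at 0.5 h, not called (adjusted p 0.0738), and 0.38 at 1 h, not called with the 1 LysM-Cre library there (adjusted p 0.376), and in the low set 1.31 and 0.92. Of 10 neutrophil markers 5 were tested, and 4, 3, 4 and 5 of them were called lower in the libraries labelled FosKO at the 4 times and none higher. The shares of all genes called lower at these times were 15.9%, 19.7%, 15.9% and 20.3%. Summed over the neutrophil markers, the level at 0 h was 363 to 401 for LysM-Cre. Under the FosKO label it was 298 to 349, with 4 markers below the filter. Most of this sum was Mmp8, a metalloproteinase that is also counted among the other family genes further on. Mmp8 averaged 8.16 (LysM-Cre) and 8.05 (FosKO label) at 0 h on the log2 scale. The next highest markers averaged 4.77 (S100a9, LysM-Cre) and 4.25 (S100a8, FosKO label). The size of the sum is therefore mainly that of Mmp8. In the fit of group means LPS did not give a call for Mmp9 in either genotype (95% interval at 2 h -0.22 to 0.61 in LysM-Cre and -0.17 to 0.66 in the libraries labelled FosKO). With a replicate block within genotype the change at 1 h was called in LysM-Cre (0.27, limma adjusted p 0.04). Under the FosKO label that block gave calls at 1 h and 2 h (0.31 and 0.24, limma adjusted p 0.0196 and 0.039). No label names such a pairing.

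Mmp13, a collagenase that cuts fibrillar collagens, rose with LPS and differed between the genotypes mainly at 2 h. In LysM-Cre it read 11.16, 11.01 and 10.93 before LPS, while 0.5 h of LPS gave 11.24, 11.16 and 11.16, 1 h gave 12.14, 12.13 and 12.28 and 2 h gave 13.44, 13.48 and 13.50. In the libraries labelled FosKO it read 11.11, 11.15 and 11.12, then 11.38, 11.32 and 11.32, then 12.09, 12.09 and 12.07, and at 2 h 14.02, 13.86 and 13.85. The genotypes overlapped at 0 h, the FosKO libraries lay just above at 0.5 h and just below at 1 h, and they were clearly above at 2 h. The difference at 2 h was 0.44 (SE 0.05, 1.35-fold, limma adjusted p 6.17e-07). It was 0.10 at 0 h and -0.10 at 1 h, neither called (adjusted p 0.155 and 0.135), and 0.15 at 0.5 h (adjusted p 0.0202). Under quantile normalisation the 1 h difference was called (-0.16, adjusted p 0.0173) and the 0.5 h difference was not (0.10, adjusted p 0.135).

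The small differences in Mmp13 also moved with single libraries. At 0.5 h the call went when LysM-Cre replicate 2 was left out (0.14, limma adjusted p 0.0735) or 3 (0.14, adjusted p 0.0658) or FosKO replicate 1 (0.13, adjusted p 0.0715), and at 0 h the difference was called without LysM-Cre replicate 1 (0.16, adjusted p 0.0153). The high 18S set gave 0.12 (not called, adjusted p 0.153) and the low set 0.22 at 0.5 h, with -0.07 and -0.11 at 1 h. LPS raised Mmp13 by 1.15 at 1 h and 2.44 at 2 h in LysM-Cre (adjusted p 1.09e-13 and 1.73e-19), and by 0.95 and 2.78 in the libraries labelled FosKO (adjusted p 3e-12 and 2.72e-20). The response at 2 h was larger in the libraries labelled FosKO by 0.34 (SE 0.07, adjusted p 0.00234), the opposite direction to Mmp14. At 0.5 h Mmp13 was called in the libraries labelled FosKO (0.21, adjusted p 0.0132), and not in LysM-Cre (0.15, adjusted p 0.0763). The difference between these was 0.06 and was not called (adjusted p 0.913). At 0.5 h the call in the libraries labelled FosKO went when FosKO replicate 1 of 0 h (0.20, adjusted p 0.0514) or of 0.5 h (0.19, adjusted p 0.0549) was left out, or with the high 18S libraries only (0.19, adjusted p 0.0688), and the change in LysM-Cre was 0.22 (adjusted p 0.00718) when its replicate 1 of 0 h was left out.

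Mmp12 was the most expressed of the 10 genes and varied least. Over all 24 libraries it stayed between 15.25 and 15.69. LysM-Cre libraries read 15.44, 15.50 and 15.43 at 0 h and libraries labelled FosKO 15.28, 15.33 and 15.38, and the genotypes did not overlap at 0, 0.5 or 1 h. The difference was -0.13 at 0 h (limma adjusted p 0.0273), -0.22 at 0.5 h (adjusted p 0.000435) and -0.13 at 1 h (adjusted p 0.0317), and the -0.06 of 2 h was not called (adjusted p 0.274). Under quantile normalisation the 2 h difference was -0.23 and was called (adjusted p 0.000191), and with only the groups compared the calls at 0 and 1 h were lost (adjusted p 0.0714 and 0.0638). Leaving out LysM-Cre replicate 2 or FosKO replicate 1 or 2 removed the call at 0 h (-0.13 to -0.10, adjusted p 0.0604 to 0.112), and leaving out replicate 1 or 2 of either genotype removed that at 1 h (-0.12 to -0.10, adjusted p 0.0864 to 0.117). Split by 18S, the difference at 0.5 h was -0.24 in the high and -0.19 in the low set, followed by -0.12 and -0.17 after 1 h. The -0.12, with 1 LysM-Cre library, was not called (adjusted p 0.236).

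After LPS, Mmp12 in LysM-Cre was higher by 0.20 (1 h) and 0.13 (2 h) (limma adjusted p 0.00108 and 0.0167) and by 0.21 and 0.20 in the libraries labelled FosKO (adjusted p 0.00102 and 0.000669). These directions depended on the scaling. Under quantile normalisation all 4 differences were negative, -0.08 and -0.31 in LysM-Cre (adjusted p 0.155 and 2.48e-06) and -0.02 and -0.27 in the libraries labelled FosKO (adjusted p 0.761 and 1.24e-05). Without LysM-Cre replicate 3 at 0 h or replicate 1 at 2 h the change in LysM-Cre at 2 h was not called (0.11 and 0.12, adjusted p 0.0634 and 0.056).

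Mmp19, a metalloproteinase that cuts basement membrane proteins, was the member that fell most with LPS. LysM-Cre libraries read 8.80, 8.73 and 8.79 before LPS, while 0.5 h of LPS gave 8.70, 8.66 and 8.83, 1 h gave 8.51, 8.42 and 8.41 and 2 h gave 8.04, 7.98 and 7.86. Libraries labelled FosKO read 8.60, 8.53 and 8.53, then 8.54, 8.49 and 8.45, then 8.24, 8.30 and 8.32, and at 2 h 7.62, 7.75 and 7.64. The genotypes did not overlap at any time, with the libraries labelled FosKO lower throughout. The difference was -0.22, -0.24, -0.16 and -0.29 (SE 0.05, limma adjusted p 0.00215, 0.000951, 0.0224 and 0.00011). By 2 h Mmp19 had fallen by 0.82 in LysM-Cre and by 0.89 in the libraries labelled FosKO (adjusted p 1.92e-11 and 4.63e-12), and the difference in response was not called (-0.07, 95% interval -0.22 to 0.08). Leaving out replicate 1 of LysM-Cre (-0.13, adjusted p 0.104) or of FosKO (-0.13, adjusted p 0.086) removed the genotype call at 1 h. In the high 18S set it was -0.22 at 0.5 h and -0.20 at 1 h, not called with 1 LysM-Cre library though larger than with all libraries (adjusted p 0.0809), and in the low set -0.28 and -0.18.

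**Figure D2:**
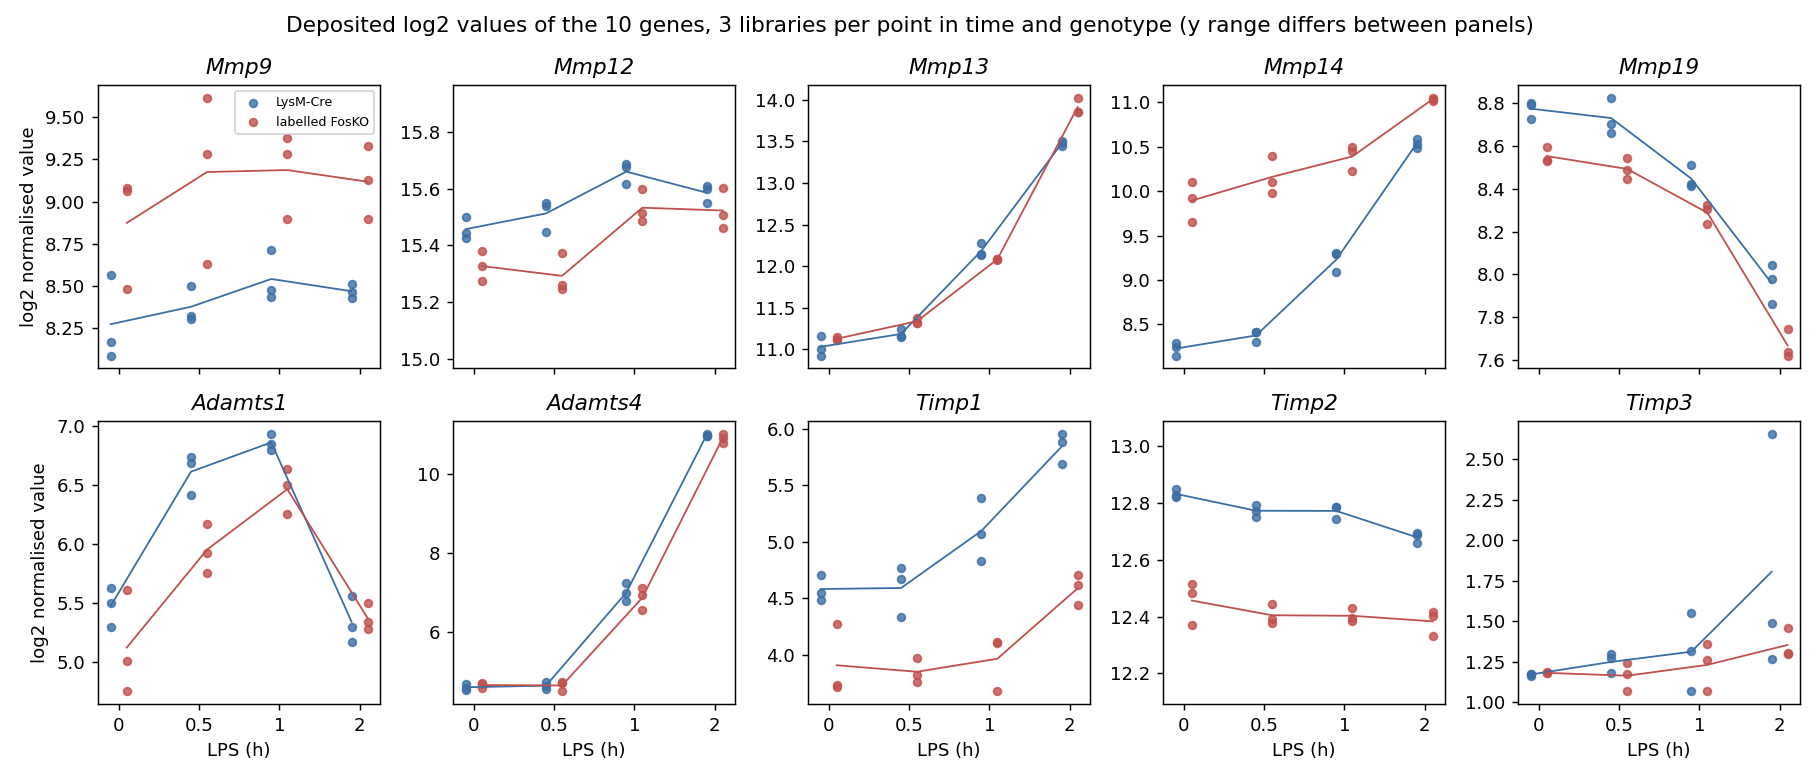
Deposited log2 value (vertical axis) of each of the 10 genes by time in LPS (horizontal axis, hours) in LysM-Cre (blue) and libraries labelled FosKO (red). Points are single libraries and lines join the means of 3, and the vertical range differs between panels. Mmp14 libraries labelled FosKO lie above LysM-Cre at each time and Timp1 libraries below, while the Adamts4 lines lie together.

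Adamts4, an aggrecanase, changed more with LPS than any other of the 10 genes and did not give a call between the genotypes. LysM-Cre libraries read 4.58, 4.54 and 4.68 before LPS, while 0.5 h of LPS gave 4.74, 4.63 and 4.55, 1 h gave 7.23, 6.98 and 6.77 and 2 h gave 10.96, 10.94 and 11.01. Libraries labelled FosKO read 4.71, 4.57 and 4.69, then 4.50, 4.73 and 4.72, then 6.56, 6.94 and 7.10, and at 2 h 10.77, 11.00 and 10.90. The genotypes overlapped at every time, and all libraries at 1 and 2 h lay above all those at 0 h. The rise was 2.39 at 1 h and 6.37 at 2 h in LysM-Cre (limma adjusted p 7.24e-13 and 3.43e-20), and 2.21 and 6.23 in the libraries labelled FosKO (adjusted p 3.27e-12 and 4.76e-20). The 2 h values are 82.6-fold and 75.2-fold on this scale.

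The interval of the genotype difference in Adamts4 was -0.19 to 0.30 at 0 h, -0.24 to 0.25 at 0.5 h, -0.38 to 0.12 at 1 h and -0.33 to 0.17 at 2 h, so differences of over 0.4 in either direction lay outside it at each time. The high 18S set gave 0.03 and the low set -0.05 at 0.5 h, with -0.21 and -0.32 at 1 h. With the 18S set as a term of the fit, the difference at 1 h was -0.23 and was called (limma adjusted p 0.0429). The difference in response at 2 h was -0.14 (95% interval -0.48 to 0.21, adjusted p 0.672).

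Adamts1, a protease that cuts versican and aggrecan, rose early and returned. LysM-Cre libraries read 5.30, 5.62 and 5.50 before LPS, while 0.5 h of LPS gave 6.42, 6.68 and 6.74, 1 h gave 6.80, 6.85 and 6.93 and 2 h gave 5.17, 5.56 and 5.30. Libraries labelled FosKO read 5.61, 4.75 and 5.01, then 6.17, 5.93 and 5.76, then 6.64, 6.26 and 6.50, and at 2 h 5.50, 5.34 and 5.28. In both genotypes the libraries at 0.5 and 1 h lay above those at 0 h, and those at 2 h overlapped 0 h again. The rise at 0.5 h was 1.13 in LysM-Cre against 0.83 in those labelled FosKO (limma adjusted p 8.47e-05 and 0.00327, the latter 0.19 when only the groups compared were fitted), and at 1 h it was 1.38 and 1.34 (adjusted p 1.17e-06 and 2.09e-06). At 2 h the change from 0 h was -0.13 and 0.25 and was not called (95% intervals -0.49 to 0.22 and -0.10 to 0.60).

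Between the genotypes Adamts1 at 0.5 h was lower under the FosKO label, with a difference of -0.66 (SE 0.17, limma adjusted p 0.00353), with no overlap. At 0 h the difference was -0.35 and at 1 h -0.40, neither called (adjusted p 0.117 and 0.0779, the latter 0.0293 and called when only the groups compared were fitted), and at 2 h it was 0.03 (95% interval -0.32 to 0.38). FosKO replicate 1 at 0 h read 5.61 against 4.75 and 5.01 in the others. Without it the difference at 0 h was -0.59 (adjusted p 0.00341), the rise at 2 h in the libraries labelled FosKO was 0.49 (adjusted p 0.0073) and the difference in response at 2 h was 0.63 (adjusted p 0.0387). Split by 18S, the difference at 0.5 h was -0.71 in the high and -0.57 in the low set, followed by -0.42 and -0.25 after 1 h.

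Timp1, an inhibitor of most soluble metalloproteinases, had lower values under the FosKO label at every time. LysM-Cre libraries read 4.71, 4.55 and 4.49 before LPS, while 0.5 h of LPS gave 4.67, 4.76 and 4.33, 1 h gave 5.39, 5.07 and 4.83 and 2 h gave 5.88, 5.69 and 5.96. Libraries labelled FosKO read 3.73, 3.71 and 4.27, then 3.82, 3.76 and 3.97, then 4.11, 3.67 and 4.10, and at 2 h 4.44, 4.71 and 4.61. The genotypes did not overlap at any time, and the libraries labelled FosKO at 2 h lay about where LysM-Cre lay at 0 h. The difference was -0.68 (SE 0.17, limma adjusted p 0.00296), -0.74 (adjusted p 0.00108), -1.13 (adjusted p 1.75e-05) and -1.26 (adjusted p 3.05e-06), which at 2 h is a level 2.39-fold lower. In the high 18S set it was -0.85 at 0.5 h and -1.50 at 1 h, and in the low set -0.52 and -0.84.

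LPS raised Timp1 by 0.51 at 1 h and 1.26 at 2 h in LysM-Cre (limma adjusted p 0.0191 and 1.1e-06). In the libraries labelled FosKO the change was 0.06 at 1 h, not called (95% interval -0.29 to 0.40), and 0.68 at 2 h (adjusted p 0.00121). The difference in response was -0.46 at 1 h and -0.58 at 2 h, neither called (adjusted p 0.694 and 0.108, 95% intervals -0.94 to 0.03 and -1.07 to -0.09). The call at 1 h in LysM-Cre was lost without LysM-Cre replicate 2 or 3 at 0 h (0.50 and 0.47, adjusted p 0.0534 and 0.0674) or replicate 1 at 1 h (0.37, adjusted p 0.115).

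Timp2, which besides inhibiting metalloproteinases takes part in the activation of Mmp2 by Mmp14, was the second most expressed of the 10 genes per length in LysM-Cre at 0 h. LysM-Cre libraries read 12.85, 12.82 and 12.83 before LPS, while 0.5 h of LPS gave 12.80, 12.75 and 12.77, 1 h gave 12.79, 12.75 and 12.79 and 2 h gave 12.69, 12.66 and 12.69. Libraries labelled FosKO read 12.48, 12.37 and 12.51, then 12.39, 12.38 and 12.44, then 12.43, 12.38 and 12.39, and at 2 h 12.42, 12.33 and 12.40. Every library labelled FosKO lay below every LysM-Cre library, over all times. The difference was -0.38, -0.37, -0.37 and -0.30 (SE 0.03, limma adjusted p 1.25e-08, 1.13e-08, 1.38e-08 and 1.52e-07). The high 18S set gave -0.36 and the low set -0.38 at 0.5 h, with -0.40 and -0.33 at 1 h.

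At 2 h of LPS Timp2 had fallen by 0.15 in LysM-Cre (limma adjusted p 0.000218) and by 0.07 in the libraries labelled FosKO (adjusted p 0.0453). The latter call was lost without FosKO replicate 1 or 3 at 0 h (-0.06 and -0.04, adjusted p 0.15 and 0.242) or FosKO replicate 2 or 3 at 2 h (-0.05 and -0.08, adjusted p 0.224 and 0.0505). At an unchanged -0.07 it was also lost without the filter (adjusted p 0.0742) and with only the groups compared (adjusted p 0.207). The same -0.07 was not called with the 18S set as a term (adjusted p 0.0502) or with the high 18S libraries only (adjusted p 0.0761). After median centring the change was -0.02 and was not called (adjusted p 0.669). Without FosKO replicate 2 at 0 h the fall at 1 h was called (-0.10, adjusted p 0.0114). Under quantile normalisation, Timp2 was called lower in both genotypes with LPS for 0.5 h and for 1 h (-0.28 to -0.13, adjusted p at most 0.0113).

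Timp3, which binds the matrix and also inhibits Adamts4 and Adam17, lay below the filter. Its values ran from 1.07 to 2.66, and 1 library, LysM-Cre replicate 2 at 2 h, reached the minimum of the filter. The other 2 libraries of that group read 1.27 and 1.49, and those labelled FosKO at 2 h read 1.30, 1.30 and 1.46. Values this low were not tested.

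**Figure D3:**
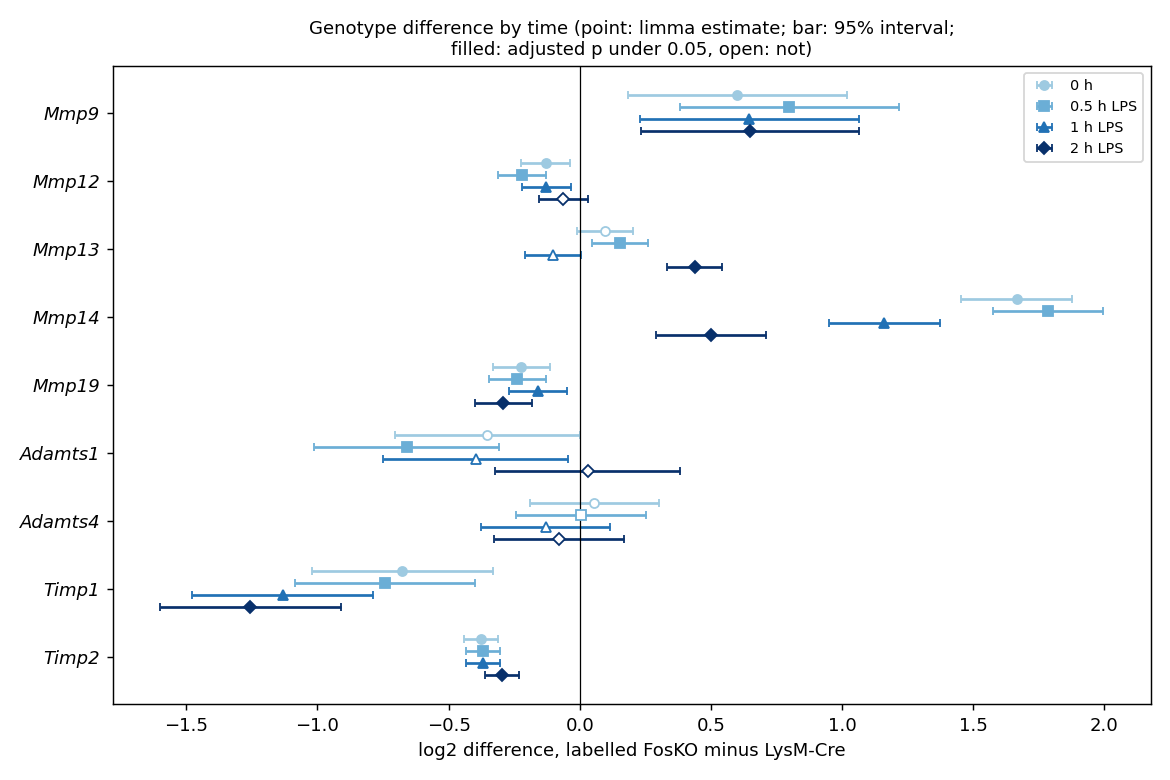
Log2 difference between libraries labelled FosKO and LysM-Cre (horizontal axis) for the 9 tested genes at the 4 times. Points are limma estimates from 3 libraries a group, bars are 95% intervals, and filled points were called at an adjusted p under 0.05. The Mmp14 difference is 1.67 at 0 h and 0.50 at 2 h, and the Timp1 difference goes from -0.68 to -1.26.

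The response to LPS was counted over the same 9 genes. In LysM-Cre, limma called 1 gene at 0.5 h (Adamts1, higher), against 7.24% of all genes. It called 7 at 1 h (6 higher, 1 lower), against 35.8%, and 7 at 2 h (5 higher, 2 lower), against 60.8%. In the libraries labelled FosKO it called 2 at 0.5 h (Adamts1 and Mmp13, both higher), against 5.92%. The 1 h count was 6 (5 higher, 1 lower), against 32.6%, and the 2 h count 7 (5 higher, 2 lower), against 62.1%. The 5 genes higher at 2 h were Mmp12, Mmp13, Mmp14, Adamts4 and Timp1 in both genotypes, and the 2 lower were Mmp19 and Timp2. Under quantile normalisation 4 were called higher and 3 lower at 2 h in each genotype, with Mmp12 called lower. The Timp2 call in the libraries labelled FosKO was lost in several settings, as given above. These comparisons share the 0 h libraries of each genotype. The difference between the genotypes in the response was called for 2 genes at 2 h, Mmp13 and Mmp14, against 15% of all genes. At 1 h limma called 0 (1.22% of all genes), with 2 genes at an unadjusted p under 0.05, Mmp13 and Mmp14. Robust moderation also called 0 at 1 h, but other settings called Mmp14. These were quantile normalisation (limma adjusted p 0.0214), either replicate block (0.0203 and 0.0106) and leaving out FosKO replicate 1 at 0 h (0.0153). At 0.5 h limma called 0 (0.115% of all genes), with 0 at an unadjusted p under 0.05 and 0 by robust moderation.

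**Figure D4:**
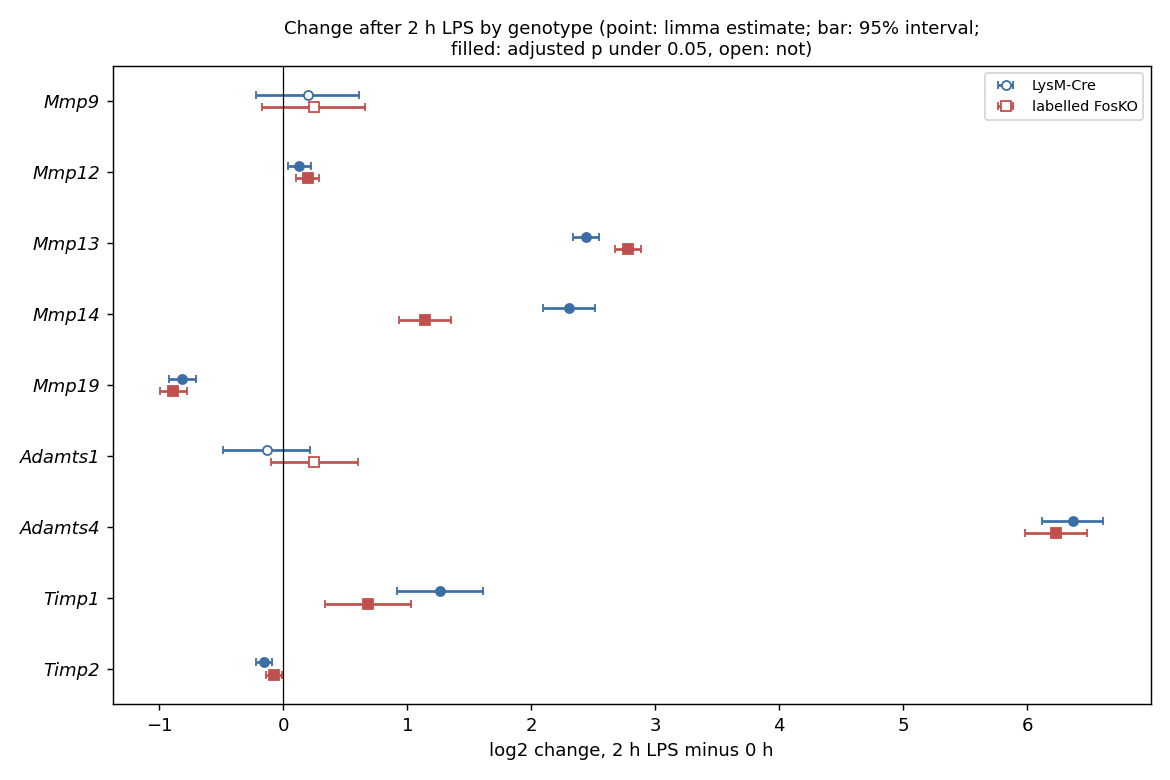
Log2 change after 2 h of LPS (horizontal axis) of the 9 tested genes in LysM-Cre (blue circles) and libraries labelled FosKO (red squares). Points are limma estimates from 3 libraries a group, bars are 95% intervals, and filled points were called at an adjusted p under 0.05. The intervals of the genotypes are apart for Mmp14 (2.31 and 1.14) and for Mmp13 (2.44 and 2.78).

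Other proteases and inhibitors of these families were read from a list of 49 genes, of which 40 were in the table and 20 were tested. Between the genotypes 6 were called higher and 6 lower before LPS, and after LPS 5 and 4 (0.5 h), 3 and 4 (1 h) and 6 and 5 (2 h), against 35.4%, 40.9%, 33.9% and 44.6% of all genes at these times. Under quantile normalisation the counts were 5 and 6, 5 and 3, 3 and 5, and 4 and 5. With LPS in LysM-Cre, 4 were called higher and 5 lower at 2 h (4 and 9 under quantile normalisation), against 60.8% of all genes, and the median over the list was -0.01, against -0.02 for all genes. Mmp25, a metalloproteinase anchored in the membrane of leukocytes, was the 1 gene of the list called with a change of at least 2-fold. Its level under the FosKO label was higher by 1.31, 1.09, 0.83 and 0.76 at the 4 times (limma adjusted p 1.17e-05, 7.17e-05, 0.00141 and 0.00199) and rose by 1.88 at 2 h of LPS in LysM-Cre (adjusted p 1.76e-08).

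Of 13 genes for convertases, receptors and binding partners of these enzymes, 10 were tested. Between the genotypes 2 were called higher and 2 lower before LPS, then 1 and 4 (0.5 h), 2 and 2 (1 h) and 3 and 2 (2 h), beside the 35.4%, 40.9%, 33.9% and 44.6% of all genes. Under quantile normalisation the counts were 2 and 5, 2 and 4, 2 and 4, and 3 and 4. After 2 h of LPS in LysM-Cre 8 were called higher and 2 lower, against 60.8% of all genes. Thbs1, which codes for thrombospondin 1, an adhesive matrix protein, was higher in the libraries labelled FosKO at each time, by 1.65, 1.81, 1.25 and 0.89 (limma adjusted p at most 2.63e-05). Itgav, the integrin alpha V chain, was lower in them by -0.32 at 0 h and -0.44 at 2 h (adjusted p 4.32e-06 and 4.04e-08) and rose by 2.22 in LysM-Cre at 2 h of LPS. Cd44, a hyaluronan receptor to which Mmp9 and Mmp14 can dock, rose by 1.29, the syndecan Sdc4 by 3.12, and Lcn2, the lipocalin that binds Mmp9, by 2.12 at 2 h in LysM-Cre (adjusted p at most 3.01e-10).

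Of 16 genes for matrix proteins and shed cytokines, 12 were tested. Between the genotypes 2 were called higher and 2 lower before LPS, then 2 and 3 (0.5 h), 3 and 3 (1 h) and 5 and 3 (2 h), with the same shares of all genes. After 2 h of LPS in LysM-Cre 7 were called higher and 0 lower, a share near the 60.8% of all genes. Col18a1, which codes for the collagen that gives rise to endostatin, was lower in the libraries labelled FosKO by -2.19, -2.15, -2.13 and -2.28 (limma adjusted p at most 1.08e-15), and Col4a1, a basement membrane collagen, by -0.72, -0.69, -0.66 and -1.15 (adjusted p at most 0.000688). Vcan, which codes for versican, rose by 2.15 in LysM-Cre at 2 h of LPS (adjusted p 1.3e-09). Il1b rose by 4.94 and Tnf by 3.33 at the same time (adjusted p 5.7e-21 and 9.72e-21).

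The genes whose pattern over the 8 group means was most like that of Adamts4, the member with the widest range, were Nr4a3, Psmd14 and Aebp2 (Pearson's r 0.9987, 0.9985 and 0.9982). Over the same group means 608 of 13901 genes had r above 0.95. For Mmp14, the member with the largest genotype difference, they were Mthfsl, Msr1 and Mcoln2 (0.9951, 0.9922 and 0.9921), with 114 genes above 0.95. The 8 points share libraries, normalisation and the LPS time course, and the correlations are a description.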

How the data were processed

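RNA was sequenced from 24 libraries of mouse BMDMs, 3 in each of 8 groups given by the labels. According to the study's methods, TruSeq libraries were read from a single end, strand-specifically, on a HiSeq sequencer. Per the labels, STAR 2.5.2a, RSEM 1.2.31 and DESeq2 1.16.1 were used with GRCm38. The authors deposited normalised log2 values, 1 per gene and library. They look like regularised log values, which shrink weakly expressed genes to their average over libraries, and differences of such genes would then be understated. The study's methods give a typical read yield, but reads per library could not be recovered from the values, so the depth of each library is unknown and the precision is the spread between libraries.

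Genes with a linear value (2 to the power of the value) of at least 5 in at least 3 libraries were kept, 13901 of 24273. Of the 24273 genes, 1017 had no symbol. Limma 3.58.1 in R 4.3.3 fitted 8 group means with a trend on the mean value and 16 residual degrees of freedom. From the fit 13 comparisons were drawn, and p-values were adjusted over all genes tested by Benjamini and Hochberg's procedure, with calls at adjusted p under 0.05. An exact permutation test of 3 libraries against 3 cannot give a two-sided p below 0.1 and was not used. The fit was also run on simulated data, and the outcome is not given here. Coordinates and exon lengths came from GENCODE M21 and promoter windows from RefSeq, both on GRCm38. The list of genes overlapping the members is not reported here in full.

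The members and the lists were chosen with earlier results of these data known. All 10 members are named. Of each list those are named that were called with at least a 2-fold change in a genotype comparison or in LysM-Cre after LPS, up to 8, and genes of like pattern are the 3 of highest correlation. Marker lists were read as they stand for macrophages, neutrophils, osteoclasts, stromal cells, dendritic cells and lymphocytes. Alternatives were a pseudocount of 1, no filter, a filter at 20, quantile normalisation, median centring, only the groups compared, a replicate block (over all groups and within genotype), the 18S set as a term, the high 18S libraries alone, robust moderation and leaving out each library.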

Additional observations from a re-analysis of the deposited data

Results flagged for a closer look

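The LPS response at 2 h differed between the genotypes for 2 of the 9 tested genes, by limma's test of the difference itself. For Mmp14 the rise in the libraries labelled FosKO was smaller than in LysM-Cre (difference -1.17, SE 0.14, limma adjusted p 8.69e-06), with rises of 2.31 in LysM-Cre against 1.14 in those labelled FosKO. For Mmp13 it was larger (difference 0.34, SE 0.07, adjusted p 0.00234), with 2.44 and 2.78. All 3 libraries labelled FosKO lay above all 3 LysM-Cre libraries at 2 h for both genes, and at 0 h for Mmp14 but not for Mmp13.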

How the results depend on the processing

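Over 11 planned settings and the 24 fits that leave out 1 library each, 2039 values for single genes stayed on their side of the threshold. Another 46 were no longer called, 26 became called and 4 called values changed sign. Values without a call that changed sign and stayed uncalled are within the 2039. The cause of these changes was not tested. The 4 called values that changed sign were the Mmp12 changes after LPS under quantile normalisation. They were -0.0800 at 1 h and -0.309 at 2 h in LysM-Cre and -0.0207 and -0.273 in the libraries labelled FosKO. That scaling also turned the share of higher genes among all calls between the genotypes from 53.1% to 42.8% (1 h) and 54.6% to 43% (2 h), and for LysM-Cre at 0.5 h of LPS from 70.3% to 48.3%, while the median of all genes moved by less than 0.1 in every comparison.

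Between the genotypes 6 members were called at 1 h and 3 with the high 18S libraries only, where 1 LysM-Cre library was left against 2 labelled FosKO and its spread was taken from the other groups. There Mmp12 (-0.12) and Mmp19 (-0.20) were not called though close to or above their size with all libraries (-0.13 and -0.16), nor was Mmp9 (0.38 against 0.65). The count was 3 to 6 when 1 library was left out (3 without FosKO replicate 1 at 1 h). At 0, 0.5 and 2 h the counts of 6, 8 and 6 became 4 to 7, 7 to 8 and 5 to 6 when 1 library was left out. At 0.5 h of LPS in LysM-Cre the count of 1 became 2 under quantile normalisation and 1 to 2 when 1 library was left out (2 without LysM-Cre replicate 1 at 0 h). In the libraries labelled FosKO the count of 2 became 1 when only the groups compared were fitted and 1 to 3 when 1 library was left out (1 without FosKO replicate 1 at 0 h or at 0.5 h). For the difference in response at 1 h the count of 0 became 1, Mmp14, under quantile normalisation (-0.62, limma adjusted p 0.0214), and 0 to 1 when 1 library was left out (1 without FosKO replicate 1 at 0 h). The fall of Timp2 at 2 h of LPS in the libraries labelled FosKO was not called without the filter, after median centring, with only the groups compared, with the 18S set as a term or with the high 18S libraries only (limma adjusted p 0.0502 to 0.669). The estimate was -0.02 after median centring and -0.07 in each of the others.

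The labels do not say that a replicate number marks a shared animal or day, and the numbers were not taken to pair the libraries, since not every pair of the same number correlated above 0.1 in its deviations from the group means. Of 36 pairs of the same number and genotype 12 did (-0.25 to 0.71), against 4 of 72 pairs of the same genotype with different numbers. Over all groups 15 of 24 libraries lay closest to their own number, and within their genotype 22 of 24, a hint from the data that the numbers tie libraries within a genotype. With a replicate block the count for the difference in response at 1 h was 1 (Mmp14, -0.50, limma adjusted p 0.0203), and with a replicate block within genotype it was 1 (adjusted p 0.0106). Over all genes the replicate block moved the calls at 0 h from 4919 to 5136. With the block within genotype Mmp9 was also called at 1 h and 2 h of LPS in the libraries labelled FosKO and at 1 h in LysM-Cre (limma adjusted p 0.0196 to 0.04). Timp2 was called lower at 1 h in LysM-Cre with that block (adjusted p 0.0407), and Mmp14 higher at 0.5 h in the libraries labelled FosKO with either block (adjusted p 0.045 and 0.0257). Since the read depth of each library is unknown, how far it limits the low genes Timp1, Timp3, Adamts1 and Adamts4 was not tested.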
